A study of Mus musculus with 12 samples.

Results

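The genes followed here are Txnip, the arrestin-domain genes Arrdc1, Arrdc2, Arrdc3 and Arrdc4, the sugar-sensing factors Mlxip (MondoA) and Mlxipl (ChREBP) with their partner Mlx, and thioredoxin itself, Txn1. They are 9 of the 17097 genes that were measured in CT26 cells, a mouse colon carcinoma line. Each gene was read through 1 probe set, the one with the highest mean over the 12 arrays among those annotated with a single gene symbol. The set was selected on the log2 differences of Txnip from the control, which were large in every treated group. Their differences from the control are therefore given as a description with no p-value, and calls in those comparisons are only counted.

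Gene expression was measured on Affymetrix mouse arrays in 4 groups of 3 arrays each. STS+OXP cells spent 48 hours in short-term starvation medium (glucose 0.5 g/L, serum 1%), and 10 µM oxaliplatin was added 24 hours after that medium began. OXP cells received the same drug on the same schedule in complete medium (glucose 1.0 g/L, serum 10%). STS cells saw the starvation medium alone and CTR cells the complete medium alone, both for 48 hours. Oxaliplatin (OXP) is a platinum drug that crosslinks DNA. These doses are those of the sample labels, which lie within the range of oxaliplatin concentrations in the study's methods, while its legends give other single concentrations. CT26 is 1 cell line, and the sources used here leave it unstated if arrays of the same group were grown as separate cultures, so errors and p-values measure the spread between these arrays only.

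Txnip encodes an alpha-arrestin that binds reduced thioredoxin and slows glucose uptake by drawing glucose transporters off the cell surface. Its transcription is driven by MondoA and ChREBP, each paired with Mlx, which enter the nucleus when phosphorylated sugars accumulate and bind a pair of E-box-like sites, the carbohydrate response element. Arrdc4, the closest relative of Txnip, is the other best known MondoA target, and the alpha-arrestins as a family recruit ubiquitin ligases of the Nedd4 family to membrane proteins.

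Values are log2 signals computed by the authors with RMA, on which a difference of 1 is a 2-fold difference. Levels of different probe sets were not compared with each other, since probes differ in how brightly they bind. A group mean no higher than the brightest of 22 nonspecific control probe sets on its arrays was taken as background. That limit lay between 3.21 and 3.72 over the 12 arrays. OXP replicate 1 stood apart in RNA quality, with a 3′ to 5′ difference of the Gapdh control probe sets of 3.85, where the remaining 11 arrays had -0.12 to 0.28. OXP replicate 2 lay nearer to the STS+OXP arrays (root mean square difference over all genes 0.173, averaged over these arrays) than to OXP replicates 1 and 3 (0.345 and 0.251). Of 8 epithelial markers, 5 (Cdh1, Krt18, Krt19, Vil1 and Cldn4) were at background in all 4 groups, while Epcam was above it with a mean of 4.79 in CTR. Of 7 leukocyte markers, 3 were above background in OXP, 2 each in STS+OXP and STS, and 1 in CTR, and the summed linear signal of the list was 71.6 to 73.4 in STS+OXP, 67.2 to 104 in OXP, 67.6 to 70.5 in STS, against 70.4 to 77.3 in CTR. The high end in OXP came with Cd68, a marker of macrophages, which had 5.22, 3.07 and 4.92 in OXP and 2.93 to 2.95 in CTR. Of the 7 leukocyte markers, limma called 1 higher in OXP than in CTR (adjusted p under 0.05) and 6 not, where 17.5% of all genes were higher. At background in all 4 groups were 4 of the 7. The part of leukocytes in the results below was not tested. In bulk RNA, a change in the share of cells that express a gene and a change in the level per cell cannot be told apart.

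Txnip had the widest range of the 9 genes. Its log2 signal was 8.43, 8.44 and 8.41 on the 3 STS+OXP arrays, 8.97, 8.32 and 8.87 on the OXP arrays, 6.33, 6.36 and 6.47 on the STS arrays, against 3.96, 4.74 and 4.58 on the CTR arrays. STS+OXP and OXP were the 2 highest groups and overlapped each other, STS lay below both, and CTR lay below STS, with no overlap between these levels. The means were 8.43 ± 0.02 in STS+OXP, 8.72 ± 0.35 in OXP, 6.39 ± 0.07 in STS, against 4.42 ± 0.41 in CTR (SD, n = 3 each). Txnip was thus higher than in CTR by 4.0 in STS+OXP (16.0-fold), by 4.29 in OXP (19.6-fold) and by 1.96 in STS (3.90-fold), each with a standard error of 0.18. These differences were the 8th, 3rd and 56th highest of the 17097 genes in STS+OXP, OXP and STS. The 3 comparisons share the CTR arrays.

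**Figure D1:**
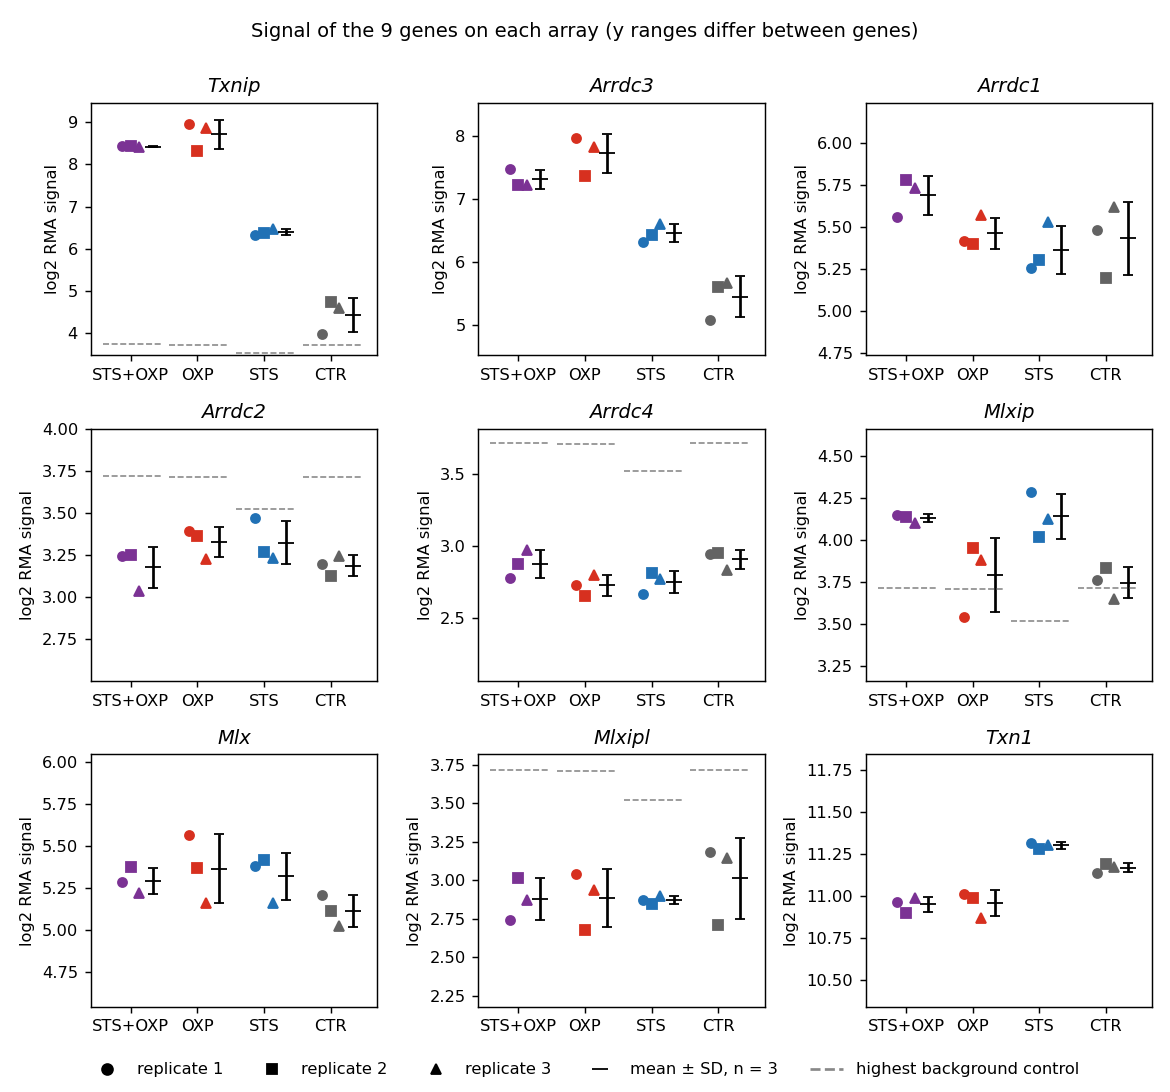
Log2 RMA signal (y axis) of each of the 9 genes on each array (x axis, group); points are arrays with the shape giving the replicate, black marks are the mean ± SD of 3 arrays, and dashed lines are the brightest background control of the group. Txnip and Arrdc3 step up in the order CTR, STS, then STS+OXP and OXP together, while Arrdc2, Arrdc4 and Mlxipl lie under the dashed lines in every group.

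A second Txnip probe set was dim and moved less. It averaged 4.48 ± 0.35 in STS+OXP, 4.26 ± 0.33 in OXP, 3.75 ± 0.08 in STS, against 3.58 ± 0.20 in CTR, the last of these under the background limit. It was higher than in CTR by 0.90 in STS+OXP, 0.68 in OXP and 0.17 in STS. It therefore kept the direction of the brighter probe set with a much smaller size, and the fold changes of Txnip given here hold for the brighter probe set.

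Txnip lies on chromosome 3 (chr3:96557957-96561857 in GRCm38.p6). The 250 bases before its start are shown because they hold the element through which MondoA and Mlx are known to act. Beside them is the same stretch of Arrdc3, which followed Txnip on these arrays, and of Arrdc4, which stayed at background. Capitals mark matches on either strand to paired sites of the form CACGNG, 5 bases of any kind, CACGNG, and to the E-box CACGTG. They also mark the CCAAT box bound by NF-Y and the forkhead motif GTAAACA bound by FoxO factors. All 3 sequences are RefSeq promoters of GRCm38.p6, written 5′ to 3′ on the strand of the gene (Txnip chr3:96557707-96557956, plus strand; Arrdc3 chr13:80883134-80883383, plus strand; Arrdc4 chr7:68749239-68749488, minus strand).
Txnip: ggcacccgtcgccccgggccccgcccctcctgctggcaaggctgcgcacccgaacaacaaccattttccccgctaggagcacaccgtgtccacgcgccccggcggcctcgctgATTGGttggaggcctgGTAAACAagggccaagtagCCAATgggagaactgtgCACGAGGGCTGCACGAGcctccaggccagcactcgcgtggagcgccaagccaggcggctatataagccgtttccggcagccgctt
Arrdc3: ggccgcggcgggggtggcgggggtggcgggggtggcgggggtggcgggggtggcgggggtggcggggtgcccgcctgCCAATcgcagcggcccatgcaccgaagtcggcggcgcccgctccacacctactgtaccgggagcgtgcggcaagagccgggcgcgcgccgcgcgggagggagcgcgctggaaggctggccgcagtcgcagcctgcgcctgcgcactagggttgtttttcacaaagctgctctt
Arrdc4: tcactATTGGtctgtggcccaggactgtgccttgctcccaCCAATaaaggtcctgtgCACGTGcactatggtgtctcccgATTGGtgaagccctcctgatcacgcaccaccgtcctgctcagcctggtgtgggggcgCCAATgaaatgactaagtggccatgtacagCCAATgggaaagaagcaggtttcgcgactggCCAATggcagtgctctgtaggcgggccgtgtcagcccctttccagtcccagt

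The Txnip window held 1 such pair, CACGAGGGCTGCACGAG, that begins 85 bases before the start. Pairs of this form, with both sites in the same orientation, were found in 15 of 32851 mouse promoter windows of the same length (0.0457%). None of the windows of the other 8 genes held one. Pairs with an inverted or less exact second site, and sites further from the start, were not searched for. The Txnip window was shown for its known element, so the match and the share of windows are a description and no test. The Txnip window also held a forkhead match that begins 121 bases before the start, a motif found in 3.17% of windows, and CCAAT boxes, found in 33.8%. Arrdc4 had an E-box, found in 6.02% of windows, that begins 193 bases before its start, and 6 CCAAT boxes, 1 of which begins 52 bases before the start. Arrdc3 has 3 annotated starts, and the window shown held 1 CCAAT box and none of the other 3 motifs. A match is a run of letters and says nothing of whether a factor bound there in these cells.

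Arrdc3, an alpha-arrestin that directs the internalisation of the beta-2 adrenergic receptor and of integrin beta 4, was the only other alpha-arrestin of the set with a large difference. Its log2 signal was 7.48, 7.22 and 7.23 in STS+OXP, 7.97, 7.37 and 7.82 in OXP, 6.32, 6.43 and 6.61 in STS, and 5.07, 5.60 and 5.67 in CTR. As for Txnip, the 2 groups with drug overlapped each other and lay above STS, which lay above CTR. Arrdc3 (chr13:80883384-80896042) was higher than in CTR by 1.86 in STS+OXP (3.63-fold), by 2.27 in OXP (4.83-fold) and by 1.01 in STS (2.01-fold), each with a standard error of 0.17. The 2 genes also shared their order within groups in part, since CTR replicate 1 was the lowest CTR array and OXP replicate 2 the lowest OXP array for both. Over the 12 arrays, Arrdc3 ranked 20th of 9028 genes above background by likeness to Txnip (Pearson r = 0.987, across arrays that fall into the 4 groups, so that r mostly describes the group means).

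**Figure D2:**
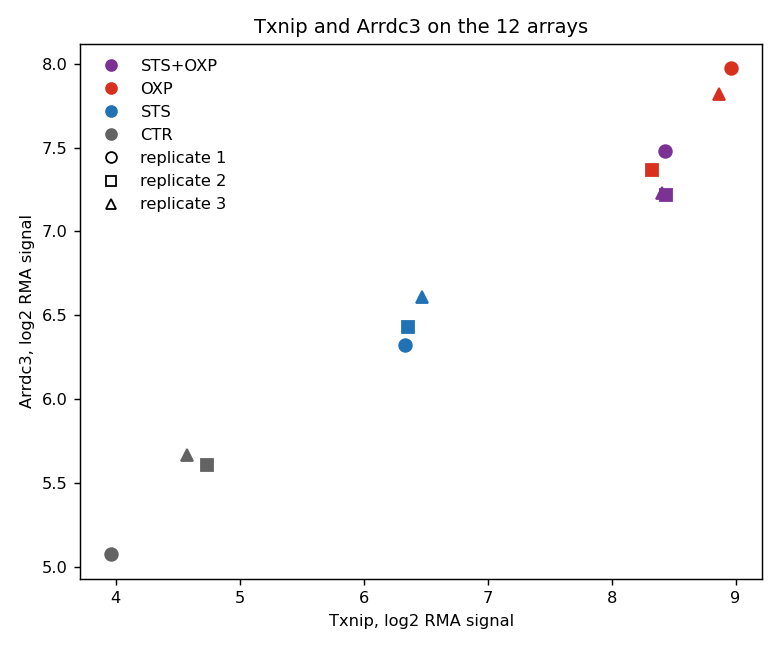
Log2 RMA signal of Arrdc3 (y axis) against Txnip (x axis) on the 12 arrays, coloured by group and with the shape giving the replicate. The arrays lie along 1 line, with CTR at the low end (Txnip 3.96 to 4.74), STS between (6.33 to 6.47), and OXP and STS+OXP together at the high end (8.32 to 8.97).

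Arrdc1 did not share this pattern, and Arrdc2 and Arrdc4 stayed at background, where a pattern under that limit could not be seen. Arrdc1, which recruits the ESCRT protein Tsg101 to bud vesicles from the plasma membrane, had 5.55, 5.78 and 5.73 in STS+OXP, 5.41, 5.40 and 5.57 in OXP, 5.26, 5.30 and 5.53 in STS, and 5.48, 5.19 and 5.62 in CTR. The arrays of all 3 treated groups overlapped those of CTR, with differences of 0.26 in STS+OXP, 0.03 in OXP and -0.07 in STS (standard error 0.11). Arrdc2 (chr8:70835129-70839720) was at background in all 4 groups, so that only an upper bound on it is known. It had 3.03 to 3.25 in STS+OXP, 3.22 to 3.39 in OXP, 3.23 to 3.47 in STS, against 3.12 to 3.24 in CTR.

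Arrdc4 (chr7:68736994-68749238), the relative of Txnip that MondoA is also known to drive, was at background in all 4 groups as well. Its log2 signal was 2.78, 2.88 and 2.98 in STS+OXP, 2.73, 2.65 and 2.80 in OXP, 2.67, 2.82 and 2.77 in STS, and 2.95, 2.95 and 2.84 in CTR. None of these values reached the control limit of its group, which was 3.52 in STS and 3.71 to 3.72 in the other groups, so that only an upper bound on Arrdc4 is known. Its second probe set was also at background, with a mean of 2.38 over the 12 arrays.

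The Mondo factors themselves differed little. Mlxip, which encodes MondoA, had 4.15, 4.14 and 4.10 in STS+OXP, 3.54, 3.95 and 3.88 in OXP, 4.29, 4.02 and 4.12 in STS, and 3.76, 3.83 and 3.65 in CTR. The groups in starvation medium, STS+OXP and STS, lay above CTR with no overlap, by 0.38 and 0.39 (standard error 0.10), while OXP overlapped CTR with a difference of 0.04. The OXP and CTR means, 3.79 and 3.75, were barely over the background limits of 3.71 and 3.72, so that the Mlxip differences may be understated. Mlx, the partner that lets MondoA bind DNA, had 5.22 to 5.37 in STS+OXP, 5.16 to 5.57 in OXP, 5.16 to 5.42 in STS, against 5.02 to 5.21 in CTR, with differences from CTR of 0.18, 0.25 and 0.21 in STS+OXP, OXP and STS (standard error 0.10). A second Mlx probe set ran partly the other way, with differences of -0.11 in STS+OXP, -0.30 in OXP and 0.26 in STS, so that no direction is given for Mlx in the groups with drug. Mlxipl, which encodes ChREBP, was at background in every group and lay between 2.68 and 3.18.

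Txn1, the thioredoxin that Txnip binds and that reduces disulfides in other proteins, was bright on every array. Its log2 signal was 10.96, 10.90 and 10.99 in STS+OXP, 11.01, 10.99 and 10.86 in OXP, 11.31, 11.28 and 11.30 in STS, and 11.14, 11.19 and 11.17 in CTR. All arrays with drug lay under all arrays without it, and STS lay above CTR. The differences from CTR were small, -0.22 in STS+OXP, -0.21 in OXP and 0.13 in STS (standard error 0.065).

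Over all 9 genes, 4 were called in STS+OXP against CTR (Txnip, Arrdc3 and Mlxip higher, Txn1 lower), where 30.6% of all genes were called with limma at an adjusted p under 0.05. In OXP against CTR, 3 were called (Txnip and Arrdc3 higher, Txn1 lower), where 31.4% of all genes were. In STS against CTR, 3 were called (Txnip, Arrdc3 and Mlxip, all higher), where 16.5% of all genes were. The 3 arrays did not overlap those of CTR for 5, 4 and 5 of the 9 genes in STS+OXP, OXP and STS, where 44.1%, 38.1% and 37.4% of all genes did not. Since Txnip was chosen for these comparisons, nothing is read from these counts. Some of these calls ended with 1 array left out. Mlxip was not called in STS+OXP without CTR replicate 3 (0.33), nor in STS without CTR replicate 1, CTR replicate 3, STS replicate 1 or STS replicate 3 (0.40, 0.35, 0.32 and 0.40). Txn1 was not called in STS+OXP without CTR replicate 2, CTR replicate 3 or STS+OXP replicate 2 (-0.21, -0.21 and -0.19), nor in OXP without CTR replicate 2, CTR replicate 3 or OXP replicate 3 (-0.20, -0.21 and -0.17). The median difference of the 9 genes was 0.18, 0.04 and 0.14 in STS+OXP, OXP and STS, against medians of 0.00, -0.01 and -0.03 over all genes.

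**Figure D3:**
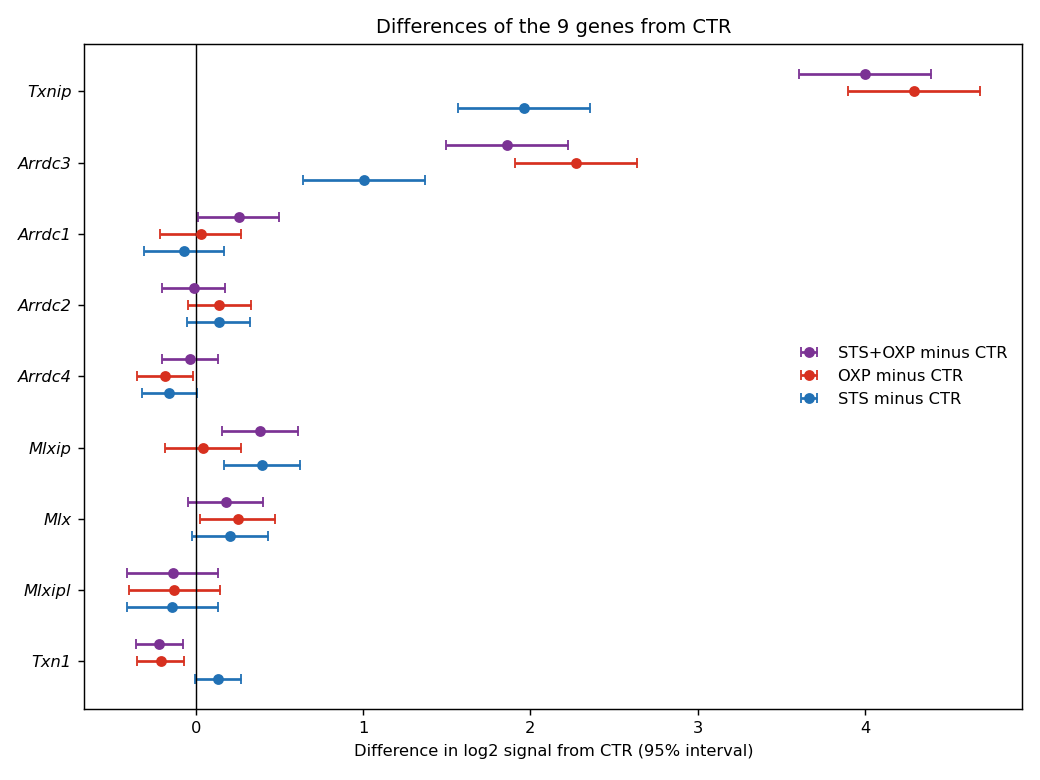
Difference in log2 signal from CTR (x axis, points) with its 95% interval from limma (bars) for each gene (y axis), in STS+OXP, OXP and STS. Txnip at 4.0, 4.29 and 1.96 and Arrdc3 at 1.86, 2.27 and 1.01 stand clear of the others, all of which lie within 0.40 of CTR.

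Whether adding oxaliplatin to starved cells changed these genes was asked by comparing STS+OXP with STS. Of the 9 genes, 3 were called, where 22% of all genes were. Txnip was higher in STS+OXP by 2.04 (4.11-fold, standard error 0.18), a difference between 2 of the values that chose the gene and so given with no p-value. Arrdc3 was higher by 0.85 (1.81-fold, standard error 0.17, limma adjusted p = 0.00204). Txn1 was lower by 0.35 (1.27-fold, standard error 0.065, adjusted p = 0.00124). All 3 STS+OXP arrays lay outside the range of the 3 STS arrays for each of these genes. Arrdc1 was also above STS on all 3 STS+OXP arrays, by 0.33 (standard error 0.11), which made 4 of 9 genes without overlap where 42% of all genes had none, but it missed the threshold (adjusted p = 0.0533). It passed without any 1 of CTR replicate 2, CTR replicate 3, STS replicate 3, OXP replicate 1 or STS+OXP replicate 1 (adjusted p = 0.0266 to 0.0446). Mlxip and Mlx differed by -0.01 and -0.03, with 95% intervals of -0.24 to 0.21 and -0.25 to 0.20.

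Whether the starvation medium changed them in cells given oxaliplatin was asked by comparing STS+OXP with OXP. None of the 9 genes was called with limma, and 2 of them, Arrdc3 and Mlxip, had an unadjusted p under 0.05. Only 0.0117% of all genes, 2 of 17097, were called in this comparison, and 2160 had an unadjusted p under 0.05. Txnip differed by -0.29 (95% interval -0.69 to 0.10), Arrdc3 by -0.41 (-0.78 to -0.05, adjusted p = 0.350) and Mlxip by 0.34 (0.11 to 0.57, adjusted p = 0.257). Mlxip was the only gene of the 9 whose STS+OXP arrays did not overlap the OXP arrays, where 12.4% of all genes did not. Txn1 differed by -0.01, with an interval of -0.15 to 0.13. This comparison depended on the OXP arrays. Without OXP replicate 1, Arrdc3 was at -0.29, Mlxip at 0.21 and Txnip at -0.17. None of the 9 genes was called then, and 3 of all genes were. Without OXP replicate 2, 2 of the 9 genes were called, Arrdc3 by -0.59 (adjusted p = 0.0416) and Mlxip by 0.42 (adjusted p = 0.0343). Of all genes, 1166 were called there, while Txnip was at -0.49. With OXP replicates 1 and 2 both left out, which leaves OXP replicate 3 alone, Arrdc3 was at -0.51, Mlxip at 0.25 and Txnip at -0.44.

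The effect of the starvation medium on Arrdc3 was not the same with and without oxaliplatin. The interaction, the difference between STS+OXP and OXP minus the difference between STS and CTR, was called for 2 of the 9 genes, where 8.29% of all genes were called. For Arrdc3, the medium made a difference of -0.41 with oxaliplatin and 1.01 without, an interaction of -1.42 (standard error 0.24, limma adjusted p = 0.00224). For Txnip the differences were -0.29 with oxaliplatin and 1.96 without, an interaction of -2.26 (standard error 0.26), given as a description because it is built from the differences that chose the gene. These values of Txnip hold for its brighter probe set alone. The dim one had 0.22 with oxaliplatin and 0.17 without, an interaction of 0.05, and the average of both probe sets had an interaction of -1.10. Only 1 probe set was annotated with Arrdc3 alone, so its interaction could not be compared with a second one. For Mlxip the medium made a difference of 0.34 with oxaliplatin and 0.39 without, and the interaction of -0.06 had a 95% interval of -0.38 to 0.26. Without OXP replicate 2, the interactions of Arrdc3 and Txnip were -1.60 and -2.45, and without OXP replicate 1 they were -1.29 and -2.13.

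**Figure D4:**
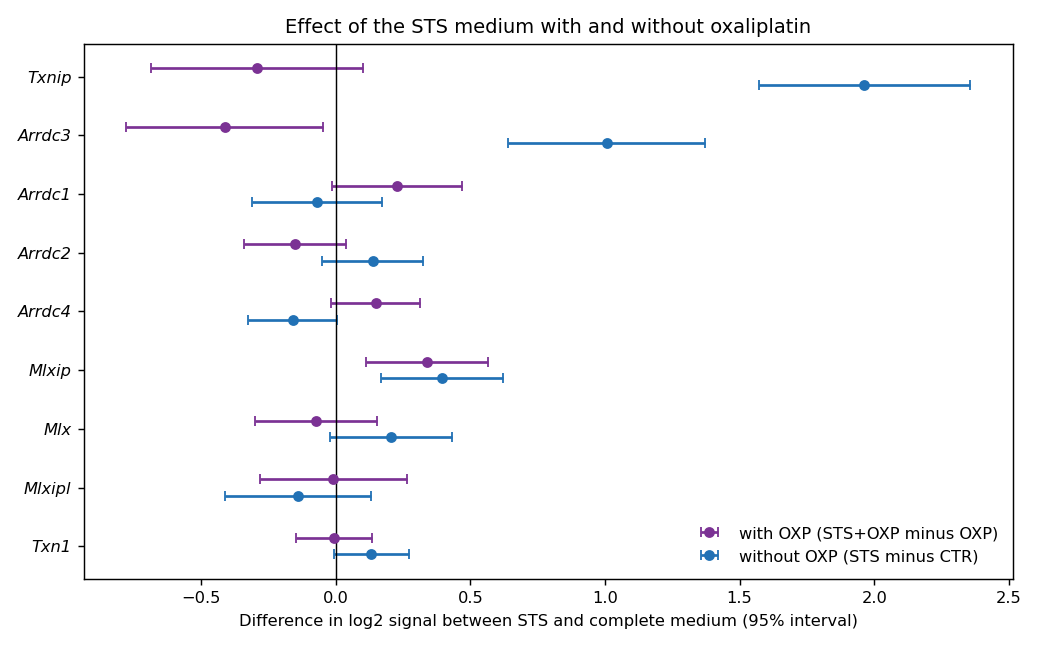
Difference in log2 signal between the starvation medium and the complete medium (x axis, points, with the 95% interval from limma as bars) for each gene (y axis), with oxaliplatin (STS+OXP minus OXP) and without it (STS minus CTR). Txnip (brighter probe set) and Arrdc3 lie at 1.96 and 1.01 without the drug and at -0.29 and -0.41 with it, while Mlxip lies at 0.39 and 0.34.

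The genes around this network were counted in lists drawn up by known role, with earlier results of these data known. Other known targets of MondoA and ChREBP moved in both directions. Of 18 measured, 3 were higher and 2 lower in STS+OXP than in CTR, 2 higher and 3 lower in OXP, and 5 higher and 2 lower in STS, and 5 were at background in every group. The median difference of the list was 0.06, -0.06 and 0.03 in STS+OXP, OXP and STS. Of all genes, 16.4% were higher and 14.2% lower in STS+OXP, 17.5% higher and 13.9% lower in OXP, and 9.75% higher and 6.74% lower in STS. With any 1 array left out, 2 to 4 of the list were higher and 2 to 3 lower in STS+OXP. In OXP, 1 to 3 were higher and 3 to 5 lower, and in STS 5 were higher and 1 to 4 lower. The most lower calls came without OXP replicate 2 for OXP and without OXP replicate 1 for STS. Calls over all genes moved as well, over 26.8% to 34.3% in STS+OXP, 27.3% to 32.1% in OXP and 11.3% to 20.6% in STS.

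The only target that was called in the direction of Txnip in all 3 treated groups was Acly, which makes acetyl-CoA for fatty acid synthesis and is named here after its values were seen. It was higher than in CTR by 0.99 in STS+OXP, 0.76 in OXP and 0.89 in STS (limma adjusted p = 2.67e-06, 3.14e-05 and 2.98e-05). The members of that list that moved most went in opposite directions. Hk2, the hexokinase that phosphorylates glucose, averaged 5.53 ± 0.22 in STS+OXP, 5.59 ± 0.18 in OXP, 6.98 ± 0.17 in STS, against 7.81 ± 0.01 in CTR (SD, n = 3 each), so it ran the other way from Txnip in all 3 treated groups (limma adjusted p = 6.51e-09, 8.48e-09 and 0.000286). Ldha, which turns pyruvate into lactate, fell by 1.26 in STS+OXP (adjusted p = 1.24e-05) and by 0.73 in OXP (adjusted p = 0.00142), and differed by -0.44 in STS (adjusted p = 0.0573). Fasn and Acaca, enzymes of fatty acid synthesis, were higher than in CTR in both groups with the starvation medium. Their OXP arrays were widely spread, with an SD of 0.83 for Fasn and 0.50 for Acaca, against 0.02 and 0.04 in STS+OXP. STS+OXP differed from OXP by 1.00 for Fasn and 0.75 for Acaca, and neither was called (limma adjusted p = 0.257 for both). Fasn was higher than in CTR by 1.03 in STS+OXP (adjusted p = 0.0128) and by 1.34 in STS (adjusted p = 0.00515) and differed by 0.03 in OXP, and its STS+OXP call was lost without CTR replicate 1 (0.89, adjusted p = 0.0611). Acaca was higher by 0.67 in STS+OXP (adjusted p = 0.00915) and by 1.01 in STS (adjusted p = 0.00126) and differed by -0.09 in OXP, and with all its probe sets averaged it was higher by 0.33 in STS+OXP and 0.56 in STS.

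Mlx is also a dimer partner of repressors that otherwise pair with Max, the partner of Myc. The list counted here holds partners of Mlx and of Max, Myc itself included. Of its 8 measured genes, 3 were higher and 2 lower than in CTR both in STS+OXP and in OXP. In STS, 2 were higher and 1 lower. Among all genes, 16.4%, 17.5% and 9.75% were higher and 14.2%, 13.9% and 6.74% lower in STS+OXP, OXP and STS. Mxd4, a repressor that opposes Myc, followed the steps of Txnip, with means of 7.60 ± 0.06 in STS+OXP, 7.54 ± 0.03 in OXP, 6.19 ± 0.07 in STS, against 5.49 ± 0.22 in CTR (SD, n = 3 each; limma adjusted p against CTR = 1.99e-09, 2.68e-09 and 0.000207). These values hold for its brightest probe set. With all its probe sets averaged, the differences from CTR were 1.08, 0.85 and 0.16 in STS+OXP, OXP and STS, and the last was not called (adjusted p = 0.494). With specific probe sets only, they were 1.10, 0.52 and 0.04, and neither OXP nor STS was called (adjusted p = 0.168 and 0.954). Mnt, a repressor that can pair with Mlx, rose by 0.62, 0.35 and 0.49 in STS+OXP, OXP and STS (adjusted p = 0.00156, 0.0485 and 0.0164). The OXP call of Mnt was lost without any 1 of 10 arrays (0.15 to 0.37), and its STS call without CTR replicate 1, CTR replicate 2, STS replicate 1 or STS replicate 3 (0.47 to 0.50). Averaging all probe sets of Mnt gave 0.33 in STS+OXP and 0.24 in STS. Myc fell by 0.92 in STS+OXP, 0.96 in OXP and 0.79 in STS (adjusted p = 5.21e-06, 3.48e-06 and 7.85e-05). Mxd3, another Max-binding repressor, fell by 0.99 in STS+OXP and 0.85 in OXP (adjusted p = 0.0013 and 0.00388) and differed by 0.08 in STS.

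The thioredoxin system, which keeps protein thiols reduced, was called lower more often than higher. Of its 11 measured genes apart from Txn1, 5 were lower and 1 higher in STS+OXP, and 6 lower and 1 higher in OXP. In STS, 4 were lower and 1 higher. Among all genes, 14.2%, 13.9% and 6.74% were lower and 16.4%, 17.5% and 9.75% higher in STS+OXP, OXP and STS. The median differences of the list were -0.24, -0.36 and -0.22 in the same order. The gene that was higher with oxaliplatin was Prdx2 and the gene that was higher in STS was Prdx4, both peroxiredoxins, which remove peroxides. They are named here after their values were seen, and the call of Prdx4 was lost without any 1 of the 9 arrays outside OXP. With 1 array left out, 4 to 6 were lower in STS+OXP, 6 to 7 in OXP and 2 to 5 in STS. The count of 2 in STS came without CTR replicate 1 or STS replicate 3, where 11.3% of all genes were called in either case. Over all 12 omissions, 26.8% to 34.3% of all genes were called in STS+OXP, 27.3% to 32.1% in OXP and 11.3% to 20.6% in STS. Txnrd1, the cytosolic reductase that recharges thioredoxin, averaged 7.82 ± 0.05 in STS+OXP, 7.94 ± 0.09 in OXP, 7.99 ± 0.04 in STS, against 8.47 ± 0.12 in CTR (SD, n = 3 each; limma adjusted p against CTR = 1.62e-05, 0.000109 and 0.000764). Prdx3, the mitochondrial peroxiredoxin, fell by 0.61, 0.48 and 0.41 in STS+OXP, OXP and STS (adjusted p = 0.000425, 0.00262 and 0.0156), and the STS call was lost without CTR replicate 1, CTR replicate 2 or STS replicate 3 (-0.40, -0.38 and -0.39). Txnrd3 fell by 0.66 in STS+OXP and by 0.79 in OXP (adjusted p = 0.000722 and 0.000167) and differed by 0.09 in STS. Srxn1, which repairs overoxidised peroxiredoxins, fell by 0.69 in STS (adjusted p = 0.00613) and differed by -0.28 in STS+OXP and -0.36 in OXP, with -0.34 in STS when its probe sets were averaged.

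**Figure D5:**
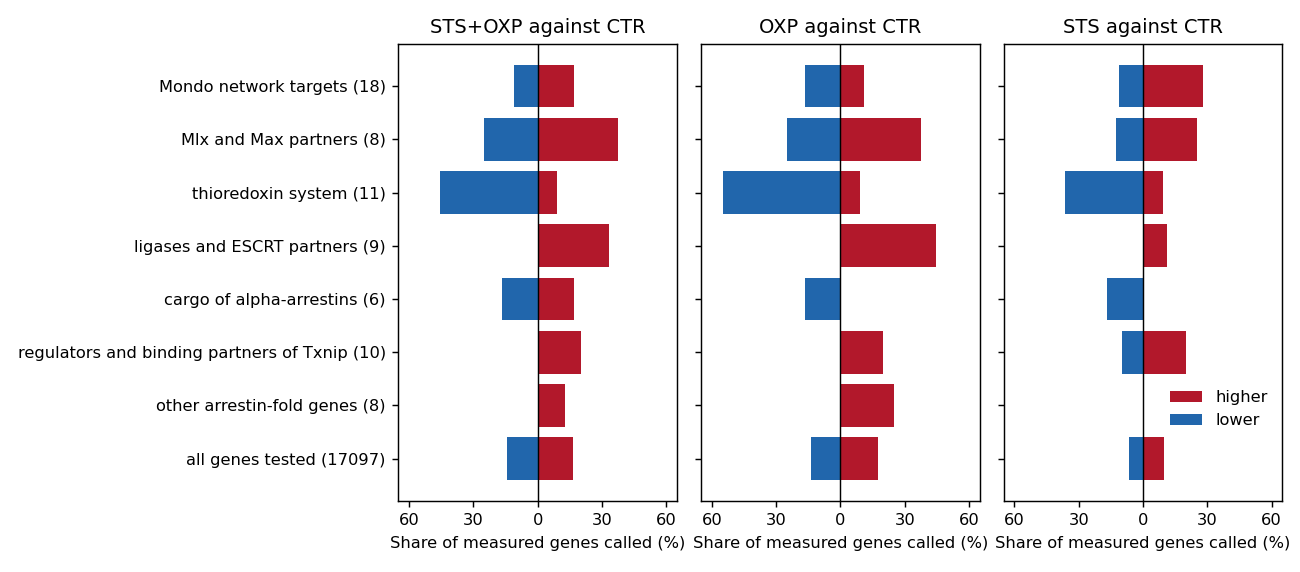
Share of the measured genes of each list (y axis, number measured in brackets) that limma called higher (right) or lower (left) than in CTR (x axis, percent), in STS+OXP, OXP and STS; the bottom row is all 17097 genes tested. In OXP, 6 of 11 thioredoxin system genes were lower and 4 of 9 ligase and ESCRT genes higher, beside 13.9% lower and 17.5% higher among all genes.

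The ubiquitin ligases and ESCRT proteins that alpha-arrestins recruit were measured for 9 genes. None was lower in any of the 3 comparisons with CTR (limma, adjusted p under 0.05). In STS+OXP 3 were higher, in OXP 4 and in STS 1. Among all genes, 16.4%, 17.5% and 9.75% were higher and 14.2%, 13.9% and 6.74% lower in STS+OXP, OXP and STS. Without OXP replicate 1, 1 gene was called lower in STS+OXP and in STS, where 34.3% and 20.6% of all genes were called. Without OXP replicate 3, 1 was called lower in OXP, where 30.7% of all genes were called. Wwp2, a ligase of the Nedd4 family, rose by 0.45, 0.60 and 0.34 in STS+OXP, OXP and STS (adjusted p = 0.000504, 4.46e-05 and 0.00903), or by 0.22, 0.18 and 0.21 with all its probe sets averaged. Nedd4 itself rose by 0.33 in STS+OXP and 0.39 in OXP (adjusted p = 0.00487 and 0.00149) and differed by 0.13 in STS, but with all its probe sets averaged the values were 0.08 in STS+OXP and 0.11 in OXP and neither was called. Vps4b, an ATPase that takes ESCRT polymers apart, rose by 0.29 in STS+OXP and 0.34 in OXP (adjusted p = 0.0164 and 0.00611), and the STS+OXP call was lost without CTR replicate 3 (0.26) or STS+OXP replicate 1 (0.21). Pdcd6ip (Alix) rose by 0.33 in OXP (adjusted p = 0.0154; 0.64 with specific probe sets only) and differed by 0.11 in STS+OXP and -0.14 in STS, and the OXP call was lost without CTR replicate 1, CTR replicate 3 or OXP replicate 1 (0.31, 0.29 and 0.24).

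Among 6 measured membrane proteins that alpha-arrestins are known to carry inwards, Slc2a1, the glucose transporter GLUT1 that Txnip removes from the cell surface, was lower in all treated groups. It averaged 8.62 ± 0.09 in STS+OXP, 8.83 ± 0.20 in OXP, 8.48 ± 0.11 in STS, against 9.43 ± 0.06 in CTR (SD, n = 3 each; limma adjusted p against CTR = 2.22e-05, 0.000314 and 2.14e-05). Itgb4, the integrin that Arrdc3 carries, averaged 4.49 ± 0.46 in STS+OXP, 4.27 ± 0.76 in OXP, 3.57 ± 0.19 in STS, against 3.45 ± 0.13 in CTR. Its CTR mean was at background. It rose in STS+OXP (adjusted p = 0.016; not called without CTR replicate 1, CTR replicate 3 or STS+OXP replicate 2, at 0.99, 1.01 and 0.78), while in OXP the adjusted p was 0.0509. The remaining 4 genes of this list were not called in any comparison with CTR. Among all genes, 30.6%, 31.4% and 16.5% were called in STS+OXP, OXP and STS.

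Regulators and binding partners of Txnip were measured for 10 genes, of which 2 were higher and none lower in STS+OXP and in OXP. In STS, 2 were higher and 1 lower. Among all genes, 16.4%, 17.5% and 9.75% were higher and 14.2%, 13.9% and 6.74% lower in STS+OXP, OXP and STS. Foxo3, a forkhead factor held out of the nucleus by growth factor signalling, averaged 6.27 ± 0.03 in STS+OXP, 6.34 ± 0.17 in OXP, 5.57 ± 0.12 in STS, against 4.92 ± 0.14 in CTR (SD, n = 3 each; limma adjusted p against CTR = 1.6e-07, 9.44e-08 and 0.000465). Map3k5 (ASK1), a kinase held inactive by thioredoxin, rose by 0.82, 0.88 and 0.77 in STS+OXP, OXP and STS (adjusted p = 1.47e-05, 7.88e-06 and 9.09e-05). Ddit4 (REDD1), an inhibitor of mTORC1 that binds Txnip, fell by 0.74 in STS (adjusted p = 0.000138) and differed by -0.14 in STS+OXP and -0.07 in OXP. Foxo1, Prkaa2 and the other genes of this list were not called in these comparisons. Of 8 other genes with an arrestin fold, 1 was higher in STS+OXP, 2 in OXP and none in STS, beside the same shares of all genes. Vps26a, a retromer subunit, rose by 0.43 in STS+OXP and 0.52 in OXP (adjusted p = 0.00106 and 0.000243). Its relative Dscr3 rose by 0.35 in OXP (adjusted p = 0.0323; not called without CTR replicate 1, CTR replicate 3 or OXP replicate 1, at 0.28, 0.31 and 0.26), and the beta-arrestin Arrb2 differed by -0.36, -0.31 and -0.36 in STS+OXP, OXP and STS without passing the threshold.

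Outside these lists, the genes whose pattern over the 12 arrays was most like that of Txnip were looked up among the 9028 genes above background. Cryab, a small heat shock protein, came first (Pearson r = 0.995), with means of 7.70 in STS+OXP, 7.95 in OXP, 5.49 in STS, against 2.95 in CTR, where it was at background. Abcg1, a cholesterol exporter, Aox1, an aldehyde oxidase, Kifbp, a kinesin-binding protein, and Tcf12, a helix-loop-helix factor, followed (r = 0.993, 0.992, 0.991 and 0.990). The most opposite patterns were those of Eif2s2, a subunit of the translation factor that brings the initiator tRNA (r = -0.997), Bcat1, which transfers amino groups from branched-chain amino acids (r = -0.991), and Erlin1, a membrane protein of the endoplasmic reticulum (r = -0.989). These values are a description over arrays that share their groups, and they carry no test.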

How the data were processed

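Total RNA of CT26 cells was labelled for Affymetrix HT MG-430 PM arrays. The authors deposited 1 table of log2 values computed by RMA in R 3.02, per the submitters' processing notes, with 45141 probe sets and 12 arrays. RMA equalises the distribution of values between arrays, so a shift common to most genes would not be seen. Probe sets with 1 symbol (28898; 551 had several and 15588 none) were reduced to 17097 genes by the highest mean. No counts exist for arrays, and their number limits the precision. Group means were estimated over the 12 arrays together by limma 3.58.1 (R 4.3.3; 8 residual degrees of freedom, prior 5.05), with two-sided tests and Benjamini-Hochberg adjustment over all genes, and checked on simulated data. Up to 4 called genes with the largest difference from CTR were named from each list. Genes and lists were chosen with earlier results of these data known. Positions and promoters are from RefSeq (GRCm38.p6). Alternatives were other normalizations, probe set rules, filters and variance models, each array left out in turn, and the methods' t-test.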

Additional observations from a re-analysis of the deposited data

Results flagged for a closer look

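Among 31 genes, the 8 genes of the set other than Txnip and the 23 list genes named for their differences from CTR, the interaction was called for 10 (32.3%), where it was called for 8.29% of all genes. Since genes were named for large differences from CTR, and 2 of 17097 genes were called in STS+OXP against OXP, this share is not independent of the choice of genes. For these 10, the effect of the starvation medium differed with and without oxaliplatin by the test of the difference itself (limma, adjusted over all genes). In each case the difference of STS+OXP from OXP is given first and that of STS from CTR after it. Among those with a negative interaction, Arrdc3 had -0.41 and 1.01 (interaction -1.42, adjusted p = 0.00224), Map3k5 -0.06 and 0.77 (-0.83, adjusted p = 0.00196), Foxo3 -0.08 and 0.65 (-0.73, adjusted p = 0.0054), Mxd4 0.06 and 0.70 (-0.64, adjusted p = 0.0105), and Wwp2 -0.15 and 0.34 (-0.49, adjusted p = 0.0162). Among those with a positive interaction, Myc had 0.04 and -0.79 (0.83, adjusted p = 0.00198), Srxn1 0.08 and -0.69 (0.78, adjusted p = 0.0409), Hk2 -0.07 and -0.83 (0.77, adjusted p = 0.0124), Slc2a1 -0.21 and -0.94 (0.74, adjusted p = 0.00517), and Ddit4 -0.06 and -0.74 (0.67, adjusted p = 0.00781). All 10 interactions remained called with OXP replicate 2 left out, with adjusted p of 0.000295 for Arrdc3 to 0.0415 for Srxn1. The interaction of Srxn1 was not called without any 1 of the 9 arrays outside OXP (0.72 to 0.83). With all probe sets of a gene averaged, the interactions of Mxd4, Srxn1, Wwp2 and Map3k5 were 0.07, 0.34, -0.17 and -0.53 and none of these 4 was called. Apart from OXP replicates 1 and 2, described above for RNA quality and for distance, samples that stand apart within a group were not sought. Groups of 3 are too small for such a search.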

How the results depend on the processing

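Each of the 54 differences of the 9 genes was recomputed under 19 to 24 alternatives, 1233 values in all. In the comparisons with CTR, 9 values moved by more than the spread between arrays. In the others, no call was lost, 13 values passed the threshold that had missed it, 11 of them for Arrdc1 in STS+OXP against STS, and 25 values changed sign, all small and none called. For Mlxipl in STS+OXP against STS these were -0.033 with median centring, -0.034 with cyclic loess, -0.016 with array weights and -0.065 to 0.071 with 1 array left out. For Txn1 in STS+OXP against OXP they were 0.045 with cyclic loess, 0.032 with array weights, 0.083 without OXP replicates 1 and 2, and -0.052 to 0.022 with 1 array left out. For Mlx in STS+OXP against OXP they were 0.057 with all probe sets averaged, 0.13 without OXP replicates 1 and 2, and -0.17 to 0.029 with 1 array left out. Mlxip in STS+OXP against STS was at 0.0027 with array weights. With 1 array left out, Mlxip in that comparison ran over -0.073 to 0.059 and its interaction over -0.18 to 0.026, Mlx in STS+OXP against STS over -0.11 to 0.021, and Mlxipl in STS+OXP against OXP over -0.11 to 0.069.

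After Benjamini-Hochberg adjustment the methods' t-test called 0 of the 9 genes in STS against CTR, where 4.18% of all genes were called. At p under 0.05 it called 4 of the 9 there, where 23.9% of all genes were called. In STS+OXP against OXP it called 0 of the 9 at either threshold, where 0% and 3.01% of all genes were called. With 1 array left out, 0 to 2 genes were called in STS+OXP against OXP, and the calls among all genes in that comparison lay between 0 and 1166 over the alternatives. With all probe sets averaged, Txnip differed from CTR by 2.45, 2.49 and 1.07 in STS+OXP, OXP and STS. With cyclic loess, Txn1 was not called in STS+OXP against CTR (-0.16). The cause of these changes was not tested.

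The sources used here leave it unstated if replicate numbers pair the arrays across groups. The deviations of same-numbered arrays correlated at -0.20 to 0.10 over 18 pairs (median -0.0048). Some differently numbered arrays had -0.19 and 0.25. With 3 arrays in each group, such correlations cannot settle whether cultures were paired. With the replicate number as a block, 4, 4 and 3 of the 9 genes were called in STS+OXP, OXP and STS against CTR. Of all genes, 29.9%, 30.7% and 15.4% were called there. In STS+OXP against STS, 4 of the 9 were called, where 21.4% of all genes were. The interaction was called for 2 of the 9, where 7.31% of all genes were. In STS+OXP against OXP, the block left 0 of the 9 and 0 of all genes called.

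The 60 called differences of named list genes were recomputed after seeing the data under the same alternatives. Of 1395 values, 1293 kept their direction and call and 100 lost the call, 29 of these with the methods' t-test after adjustment. The interaction of Mxd4 changed sign, to 0.067 with all probe sets averaged and 0.54 with specific probe sets only. Signal near background, as for Mlxip in CTR, limits how small a difference can be measured.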
